A study of Mus musculus with 3 samples.

Results

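The transcriptome of untreated R1 cells, an established mouse embryonic stem (ES) cell line, was described from a single Affymetrix array, 1 of 3 in the series. The array was taken by its label alone: its cells were undifferentiated and received no treatment. The other arrays held undifferentiated R1 cells given BMP4 (20 ng/ml) or its secreted antagonist noggin (100 ng/ml) for 4 h, and were not compared here. No culture time was given for the untreated cells, and the labels name neither the medium nor any feeder layer. The labels state that total RNA, isolated with an RNeasy kit, was biotin-labelled by Affymetrix's standard steps. Values are log2 RMA expression values, so a step of 1 is a doubling of signal. The array paired 18193 genes with at least 1 probe set of their own, and each gene was read from its brightest probe set. With 1 array there is no replicate error and no test, and the number of arrays limits the precision. Brightness depends on how well each probe binds its target as well as on transcript amount, so the order of genes describes array signal and not transcript number.

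ES cells derive from the inner cell mass of the blastocyst and keep the capacity to form every embryonic lineage. In mouse cells that state rests on a circuit in which Oct4 (gene Pou5f1), Sox2 and Nanog activate one another and a wider set of factors, including Esrrb and Klf proteins. Leukaemia inhibitory factor (LIF) acting through Stat3 and BMPs acting through Smads and Id genes sustain self-renewal, whereas Fgf4 made by the cells themselves, acting through ERK, prepares them for differentiation.

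Over all 45101 probe sets the values ran from 1.30 to 13.50 with a median of 3.45, and the median gene lay at 4.75. A background level of 3.88 was set from 153 genes of 7 families used in other tissues (olfactory, vomeronasal and taste receptors, hair keratin-associated proteins, defensins, lens crystallins and caseins). It is the value that 95% of those genes do not exceed. Their median was 2.19 and their range 1.5 to 5.29. Above this level lay 10605 genes, 58.3% of those measured. A further division placed 3691 genes between background and 6, 3956 between 6 and 8, 2336 between 8 and 10, and 622 above 10. Ribosomal protein genes, a check at the other end, had a median of 12.43 and exceeded background in 45 of 48 cases, and proteasome subunit genes had a median of 10.35 with 36 of 39 above. A value at or below 3.88 means only that a gene was not told apart from those reference genes. Exact ties were common at every level. Of genes not above background 76.8% shared their value with another gene, as did 57.8% of those above it and 50.3% of those above 6, and tied genes have no order among themselves. The commonest value, 2.0, was carried by 691 probe sets. The number of probe sets mattered too. Of the 9183 genes with 1 probe set 43.9% exceeded background, against 73% of the 9010 genes with several, where the brightest was taken.

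**Figure D1:**
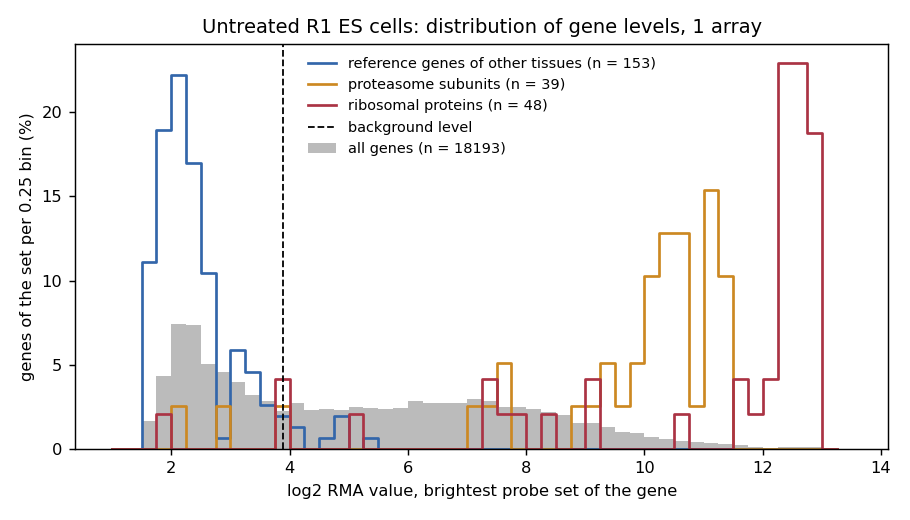
Distribution of log2 RMA values (horizontal axis) on the untreated array, as the percent of each set of genes per bin of 0.25 (vertical axis), for all 18193 genes (grey bars), 153 reference genes of other tissues, 39 proteasome subunit genes and 48 ribosomal protein genes (lines). The reference genes centre at 2.19, left of the dashed background level of 3.88, and the ribosomal protein genes at 12.43.

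The brightest genes served protein synthesis, folding and the cytoskeleton, with one ES cell gene among the first 10. Ribosomal protein genes made up 14 of the 20 brightest genes and 31 of the 50 brightest. The translation elongation factor Eef1a1 stood first at 13.04, followed by cytoplasmic actin Actb at 12.95. Dppa5a, which encodes an RNA-binding protein of pluripotent cells, ranked 8th at 12.83, beside the actin-binding thymosin Tmsb10 at 12.85 and the growth-related Tpt1 at 12.84. Chaperones followed, with Hspa8 at 12.78, Hsp90aa1 at 12.49 and the small heat shock protein Hspb1 at 12.48. Npm1, a nucleolar protein of ribosome assembly, measured 12.64, and Rpsa, a ribosomal component outside the symbol pattern used for the count, 12.59. The translation factors Eif5a, Eif4a1 and Eef1b2 measured 12.51, 12.46 and 12.26. The remaining members of the 20 brightest outside the ribosome were the mitochondrial protein gene C1qbp (12.58), the actin Actg1 (12.47), the nucleoside diphosphate kinase Nme2 (12.45), Bex1 (12.29), the nuclear transport GTPase Ran (12.25), the poly(A)-binding protein gene Pabpc1 (12.25) and the respiratory chain subunit gene Uqcrb (12.21).

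The label was checked against 5 ES cell markers, and all 5 were well above background. Zfp42 (Rex1), a zinc finger gene of undifferentiated cells, measured 11.97 and ranked 65th of 18193 genes, in the top 0.357%. Pou5f1, the POU factor of the core circuit, measured 11.31 and ranked 152nd. Sox2, its HMG-box partner, measured 11.16 and ranked 183rd, and the homeobox gene Nanog measured 11.00 and ranked 231st. These 4 genes have 1 probe set each, within the top 1.27% of genes. Esrrb, an orphan nuclear receptor, was dimmer at 9.26, rank 1202, and its 3 probe sets spread over 9.26, 7.80 and 6.40. All 3 exceeded background.

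The promoters of these genes differ widely in their sequence, as RefSeq (assembly GRCm38.p6) gives them. The 250 bases before the annotated start are shown for Nanog (chr6:122707239-122707488, plus strand; the first of its 2 listed starts), Sox2 (chr3:34649745-34649994, plus strand) and Olig2 (chr16:91225300-91225549, plus strand), with every CG pair in capitals. Olig2, a neural bHLH gene chosen after its values were seen, stands here for a gene not above background (1.82).
Nanog: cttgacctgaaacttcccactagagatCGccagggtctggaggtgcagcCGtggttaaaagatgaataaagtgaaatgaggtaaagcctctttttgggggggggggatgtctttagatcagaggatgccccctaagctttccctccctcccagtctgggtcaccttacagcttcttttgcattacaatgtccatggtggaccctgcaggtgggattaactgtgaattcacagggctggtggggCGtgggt
Sox2: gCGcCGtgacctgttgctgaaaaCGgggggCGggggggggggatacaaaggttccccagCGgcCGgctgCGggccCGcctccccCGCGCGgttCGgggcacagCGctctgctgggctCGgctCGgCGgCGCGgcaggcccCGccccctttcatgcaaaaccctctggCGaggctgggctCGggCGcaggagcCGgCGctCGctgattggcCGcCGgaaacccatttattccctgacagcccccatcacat
Olig2: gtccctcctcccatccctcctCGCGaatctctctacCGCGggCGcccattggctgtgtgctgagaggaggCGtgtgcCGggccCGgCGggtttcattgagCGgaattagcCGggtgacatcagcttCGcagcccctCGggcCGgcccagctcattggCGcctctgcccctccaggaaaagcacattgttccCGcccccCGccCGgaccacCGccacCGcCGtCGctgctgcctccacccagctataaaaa
Nanog has 3 CG pairs in this window and Sox2 has 27, although their array values were 11.00 and 11.16. Olig2, with 22, is closer to Sox2 than Nanog is. The number of CG pairs did not order these 3 genes by level, but they were picked by hand and cannot stand for the array. Promoter composition by level over all matched genes is given further below.

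Nanog and Zfp42 also carry sites for the core factors close to the start. The Oct-Sox composite element, the joined sites for Oct4 and Sox2, was searched on both strands as the Sox site CATTGT followed, after 1 free base, by the octamer part ATGCAAA. The octamer, the site for POU factors alone, was searched as ATGCAAAT, also on both strands, so the patterns share letters. The stretches around the matches are shown in the direction of transcription with the match in capitals, which reads as the opposite strand of the pattern. That of Nanog is chr6:122707401-122707440, plus strand, with the match 75 to 62 bases before the start. That of Zfp42 is chr8:43307175-43307208, minus strand, with the match 186 to 179 bases before the start.
Nanog: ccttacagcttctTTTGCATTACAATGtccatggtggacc
Zfp42: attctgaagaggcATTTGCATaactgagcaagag
Of 32851 RefSeq promoter windows of 300 bases, 2 held the composite element. Both belonged to Nanog, and they overlap and hold the same match, so this is 1 site. The search allowed no mismatch, so sites that differ by a base were not counted. The octamer was present in 1.74% of windows. It also occurred in windows of genes of other cell types that were not above background. These included Neurog1 (3.55), Evx1 (3.45), Sox1 (3.28), Cdx2 (2.70) and Cdx4 (1.79), so the octamer was not confined to bright genes. Neither pattern occurred in the windows of Pou5f1, Sox2 or Esrrb. A match is a description of the letters and not a measurement of binding.

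The wider pluripotency network was above background throughout. Of 45 listed genes 42 were measured, and all 42 exceeded background, beside 58.3% of all genes. The list holds the 5 ES cell markers already described, and was chosen with earlier results of these data known. The median of the 42 was 9.58, 36 exceeded 8 (16.3% of all genes did) and 16 exceeded 10 (3.42%). Of those 16, 4 are markers. Of the 22 members with 1 probe set, 22 were above. Among the transcription factors, Sall4, a zinc finger factor that binds with Oct4, measured 10.78. The Krüppel-like factors Klf5, Klf2 and Klf4 measured 10.49, 10.33 and 10.26, and 1 of the 3 Klf5 probe sets was not above background. Nr5a2, a nuclear receptor that can stand in for Oct4 in reprogramming, measured 8.64 and Nr0b1 (Dax1) 8.58. Tbx3, a T-box factor downstream of LIF, measured 8.27 and Prdm14, which restrains FGF signalling and DNA methylation, 7.12. Of the associated genes, Tdgf1, which encodes the Nodal co-receptor Cripto, measured 11.47. The dimmest members were Otx2 at 5.98, a homeobox gene of the primed epiblast, and Foxd3 at 5.96, a forkhead gene named after its value was seen. In 35 members every probe set exceeded background and in 7 the probe sets lay on both sides.

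**Figure D2:**
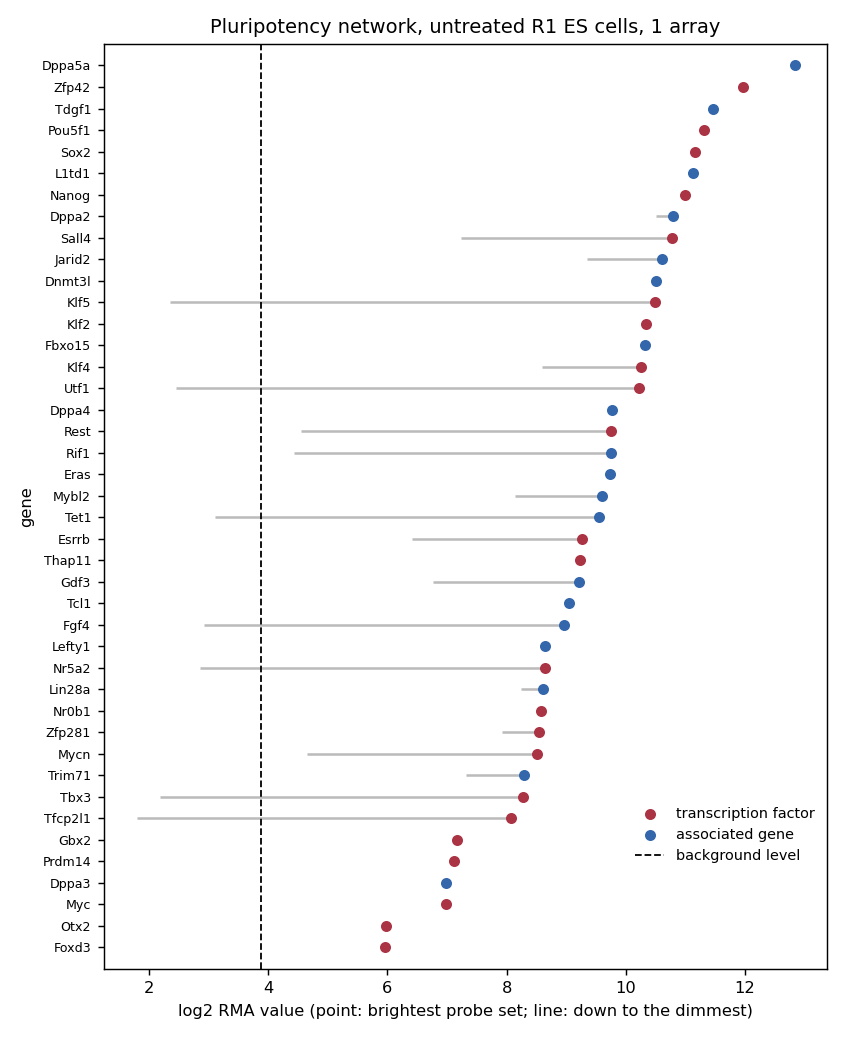
The 42 measured genes of the pluripotency network (vertical axis), each at the log2 RMA value of its brightest probe set (point) with a line down to its dimmest; transcription factors are red and associated genes blue. All points lie right of the dashed background level of 3.88, from 5.96 to 12.83, and 7 lines cross it.

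Surface proteins and glycan enzymes of ES cells were above background in 13 of 15 cases (86.7%, beside 58.3% of all genes). The tetraspanin Cd9 measured 10.18, E-cadherin (Cdh1) 9.54, the adhesion molecule Epcam 9.29 and the integrin Itga6 9.16. Icam1 measured 8.09, Itgb1 8.03 (2 of 6 probe sets above background), Cd24a 7.99, the receptor gene Kit 7.79 and alkaline phosphatase (Alpl), whose activity is a standard stain for these cells, 7.76. Pecam1 (7.12), Podxl (6.02), Cldn6 (5.32) and Fut9 (4.18) were lower. Fut9 encodes the fucosyltransferase that makes the SSEA-1 epitope, and 1 of its 3 probe sets exceeded background. Prom1 (3.28) and Fut4 (2.24), named after their values were seen, did not.

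Of 388 genes in 31 transcription factor families 194 exceeded background, 50% beside 58.3% of all genes, and their median of 3.89 lay under the 4.75 of all genes. Some families were above background in full. These were the cell cycle factors E2F and Dp (10 of 10), Myc and Max (10 of 10), Stat (6 of 6), Id (4 of 4, or 2 of 3 when probe sets with the plain suffix alone were used), Tead (4 of 4) and the E proteins (3 of 3). With the 99th percentile of the reference genes as the level, 8 Myc and Max, 4 Stat, 3 Tead and 3 Id genes were above. All 10 E2F and Dp genes and all 3 E proteins stayed above. Probe sets lay on both sides of background for 5 Myc and Max, 3 E2F and Dp and 2 E protein genes. Tfdp1, the dimerisation partner of E2Fs, measured 9.40, the Myc family gene Mycn 8.51 and its partner Max 8.03. Klf genes followed with 14 of 16, including Klf9 at 9.91 and Klf10 at 8.10, then Smad with 7 of 8 and Prdm with 9 of 11, led by Prdm2 at 8.09. Sall genes were above in 3 of 4 cases and Zic and Gli genes in 7 of 10. ETS factors stood at 16 of 24, with the FGF-responsive Etv5 at 9.65, the repressor Erf at 9.17 and Gabpa, a factor of housekeeping promoters, at 8.82.

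In some families, such as POU, AP-2 and TCF and LEF, 1 member stood far above relatives near background. In others the levels were graded. Pou5f1 at 11.31 led the POU family, in which 6 of 11 exceeded background and the next, Pou2f3 and Pou6f1, each measured 4.96. Sox2 led the Sox family (11 of 19 above, 4 of them above 6), ahead of Sox4 at 8.36 and Sox12 at 6.72. Sall4 led its family, with Sall1 at 7.27 and Sall3 at 4.30. Among T-box genes (4 of 15) Tbx3 was brightest, followed by Mga at 7.55 and Eomes at 5.92. Tcf7l1, the repressor that closes Wnt targets in ES cells, measured 8.23 and was the one of 3 TCF and LEF genes above background. Tfap2c at 7.10 was the one of 5 AP-2 genes. In the AP-1 family (6 of 11) Jund measured 9.74, with 1 of its 2 probe sets above, against 7.03 for Junb. Nuclear receptors (21 of 42, 11 of them above 6) were led by Esrrb, Nr5a2, Nr0b1 and the retinoic acid receptor gene Rarg at 8.50. Fox genes (18 of 37, 10 of them above 6) reached 8.06 for Foxn2, 8.05 for Foxj3 and 7.49 for Foxo3. For Foxn2 1 of 2 probe sets exceeded background and for Foxj3 2 of 3. Of all genes 38% exceeded 6. Interferon regulatory factors (4 of 8) reached 7.89 for Irf1. Several of these counts moved with the processing. With the 99th percentile of the reference genes as the level 6 Sox, 3 POU and 3 AP-1 genes were above, and with the 90th 2 TCF and LEF genes and 2 AP-2 genes. With plain-suffix probe sets alone 7 of 16 Sox, 1 of 4 Irf and 2 of 5 AP-2 genes were above.

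Families that pattern the body axis and specify organs were mostly near background. None of 12 LIM homeobox genes exceeded it (2 did with the 90th percentile of the reference genes as the level), and the highest, Lhx6, measured 3.67. Hox genes, which set position along the body axis, exceeded it in 7 of 33 cases, with Hoxc9 highest at 5.13. Proneural and myogenic bHLH genes were above in 7 of 28 cases (Ascl2 highest, 5.06), Pax in 2 of 8 (Pax9, 4.10), Msx and Dlx in 1 of 9 (Msx2, 4.71), Irx in 1 of 6 (Irx2, 3.93), NK homeobox in 4 of 12 (Nkx2-9, 5.88), Gata in 3 of 6 (Gata2, 4.81), sine oculis homeobox genes in 2 of 5 (Six4, 6.30) and Hes and Hey in 3 of 9 (Hes1, 6.69). Many of these calls were marginal: with the 99th percentile of the reference genes as the level, 4.83, 2 NK homeobox genes, 1 Hox gene, 1 sine oculis homeobox gene, 1 proneural or myogenic bHLH gene and no Pax, Irx, Gata, Msx or Dlx gene were above it. At the 90th percentile 12 proneural and myogenic bHLH genes, 4 Msx and Dlx genes and 2 Irx genes were.

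**Figure D3:**
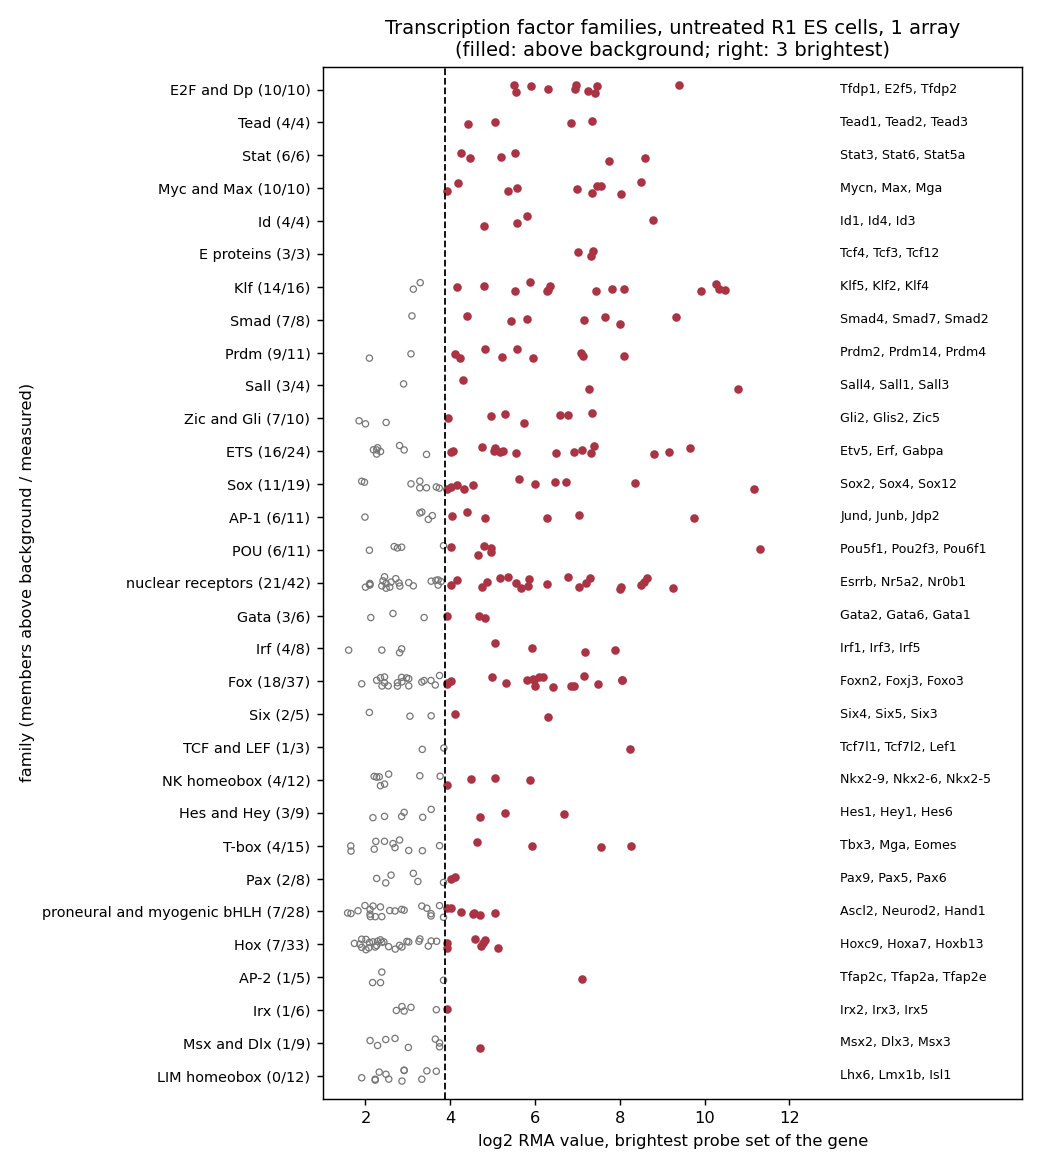
Members of 31 transcription factor families (vertical axis, ordered by the share above background) at their log2 RMA values (horizontal axis, brightest probe set), filled where above the dashed background level of 3.88 and open where not. The 3 brightest symbols stand at the right; families such as E2F and Dp lie wholly right of the line, and all 12 LIM homeobox genes left of it.

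Across 9 signalling pathways, 193 of 296 measured genes exceeded background, 65.2% beside 58.3% of all genes. Among those with 1 probe set 48 of 106 did, 45.3% beside 43.9%, so the share of the pathways as a whole was near that of the array. Ligands were above in 23 of 77 cases (29.9%), receptors in 44 of 58 (75.9%), intracellular transducers in 49 of 54 (90.7%), inhibitors in 57 of 75 (76%) and targets in 16 of 21 (76.2%). Ligands had a median of 3.10 and transducers of 6.52. The ligand group also holds genes that modify or release ligands, such as Porcn and Disp1. Among genes with 1 probe set, 6 of 37 ligands and 10 of 13 transducers were above. Receptors were seldom read from 1 probe set (9 genes, 4 above), so their share rests mostly on the brightest of several.

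**Figure D4:**
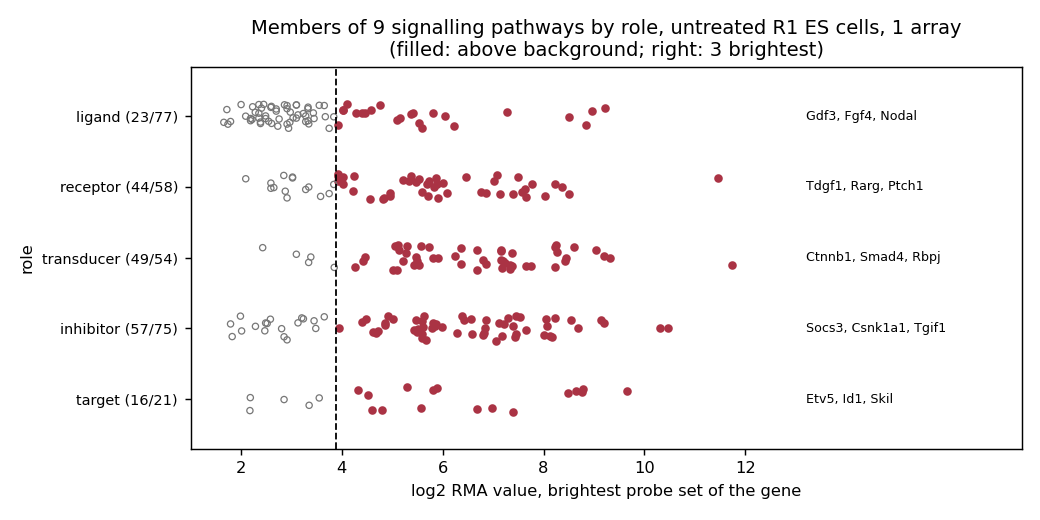
Genes of 9 signalling pathways grouped by role (vertical axis) at their log2 RMA values (horizontal axis, brightest probe set), filled where above the dashed background level of 3.88; the 3 brightest of each role are named at the right. The ligand group, which also holds genes such as Porcn and Disp1, lies mostly left of the line (23 of 77 above), transducers mostly right (49 of 54).

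LIF pathway genes were above background in 27 of 32 cases (84.4%, beside 58.3% of all genes). The signal transducer Stat3 measured 8.60 with all 4 probe sets above, and the phosphatase gene Ptpn11 (Shp2) 8.24. Stat6 measured 7.75. Of the receptors, Lifr measured 7.78 and its signalling partner Il6st (gp130) 7.14, with Cntfr at 4.56. Socs3, the feedback inhibitor that Stat3 induces, was the brightest gene of the pathway at 10.48, ahead of Socs2 at 8.54 and Socs6 at 6.83. The ligands were dim, with Ctf1 at 5.54, Osm at 4.40 and Clcf1 at 3.28. Lif itself, named after its value was seen, measured 3.13, not above background.

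BMP pathway genes were above in 24 of 41 cases (58.5%, the share over all genes being 58.3%). Of those with 1 probe set 6 of 17 were above, 35.3% beside 43.9% of all such genes. Bmp4 at 8.50 was the one of 10 ligands above background. The next, Bmp8a and Gdf2, measured 3.84 and 3.75. The receptors Bmpr1a, Eng and Acvr2b measured 7.64, 7.08 and 7.02. Smad4, the partner of all receptor-activated Smads, measured 9.33, Smad1 7.15 and Smad5 5.43. Among the targets, Id1 stood apart at 8.78, while Id4 measured 5.81, Id3 5.58 and Id2 4.80, with 2 of the 3 Id2 probe sets above background. Id proteins bind E proteins and keep them from DNA, and the E protein genes Tcf4, Tcf3 and Tcf12 measured 7.36, 7.32 and 7.01. Of the inhibitors, the ubiquitin ligase gene Smurf2 measured 8.05, Smad7 8.0 and the extracellular Twsg1 6.56. Nog, which encodes the antagonist used elsewhere in the study and was named after its value was seen, measured 2.49.

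Nodal pathway genes were above in 22 of 29 cases (75.9%, beside 58.3% of all genes), including 4 of the 7 with 1 probe set. Its ligands Gdf3 (9.22), Nodal (8.85) and Inhbb (7.27) and the co-receptor Tdgf1 were bright. Tgfb1 measured 5.37 and Inhba 4.02. The receptors Acvr1b (7.50) and Tgfbr1 (6.86), and the transducers Smad2 (7.65), Foxh1 (7.16) and Smad3 (5.81), were above background. So were the targets Skil (8.76), Lefty1 (8.64) and Lefty2 (8.48), of which the Lefty proteins block Nodal outside the cell, and the nuclear inhibitors Tgif1 (9.19), Tgif2 (8.22) and Ski (7.39).

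FGF and ERK genes were above in 32 of 51 cases (62.7%), near the share over all genes. Fgf4 at 8.96 was the brightest of 22 genes with an Fgf symbol, 6 of which exceeded background. Fgf13 followed at 5.81 and Fgf17 at 4.58. The 22 were counted as ligands by symbol, whether or not each acts as one. Fgfr1 measured 7.66, Fgfrl1 5.60 and Fgfr3 5.33. All 9 transducers were above, with the ERK kinase gene Map2k1 at 9.05, the adaptor Grb2 at 8.43 and Map2k2 at 8.27. The targets Etv5 (9.65), Etv4 (7.40) and Myc (6.98) and the feedback inhibitors Spred2 (9.14), Spry2 (8.08) and Dusp9 (7.52) were also above.

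Wnt pathway genes were above in 35 of 65 cases (53.8%), also near the share over all genes. Of those with 1 probe set 7 of 23 were above, 30.4% beside 43.9% of all such genes. Of 19 Wnt genes 4 exceeded background, Wnt7b (5.59), Wnt7a (4.76), Wnt6 (4.47) and Wnt4 (4.10), each with 1 probe set above and at least 1 not. Porcn, which acylates Wnt proteins, measured 6.22. Frizzled receptor genes were above in 8 of 10 cases, with Fzd5 at 8.24 and Fzd7 at 7.39, and the receptor kinase gene Ryk measured 7.58. Beta-catenin (Ctnnb1), which also links cadherins to the cytoskeleton, measured 11.74. Dvl2, an adaptor below the receptors, measured 7.38. Of the genes that restrain the pathway, Csnk1a1 measured 10.30, Apc 7.64 and Gsk3a 7.30.

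Notch genes were above in 22 of 30 cases (73.3%, beside 58.3% of all genes). All 4 receptors lay in a narrow range, Notch2 at 6.09, Notch4 at 5.91, Notch1 at 5.88 and Notch3 at 5.70. Jag1 was the brightest ligand at 6.05 and the DNA-binding effector Rbpj measured 9.21, whereas 3 of 7 targets exceeded background, led by Hes1 at 6.69. Hedgehog genes were above in 10 of 16 cases (62.5%, near the share over all genes), 6 of the 10 with probe sets on both sides. The receptor Ptch1 measured 8.37, Smo 5.73, and Gli2, Gli1 and Gli3 7.34, 5.73 and 5.30. Disp1, which releases the ligands, at 5.09 was the one gene of the ligand group above. Hippo genes were above in 16 of 18 cases (88.9%). The coactivators Yap1 and Wwtr1 (Taz) measured 8.45 and 7.18, the kinase Stk4 8.68, Nf2 8.16 and the target Ccn2 5.89. Retinoic acid genes were above in 8 of 17 cases (47.1%). Besides Rarg these included the receptors Rxrb (8.02), Rxra (5.86) and Rara (5.83) and the carriers Crabp1 (6.56), Rbp4 (5.72) and Crabp2 (5.15). One of 7 enzymes, Rdh10 at 5.25, was above.

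Markers of other cell types and stages were read from 10 lists, in which 95 of 210 genes exceeded background, 45.2%, beside 58.3% of all genes. Of these, 112 have 1 probe set and 49 of the 112 were above, 43.8%, beside 43.9% of all genes with 1 probe set. Without the 4 genes that a pluripotency list also holds, 91 of 206 did. Of those 206, 9 exceeded 8. Among genes with 1 probe set, 3 of 18 for primitive streak and mesoderm (16.7%) and 2 of 9 for neuroectoderm (22.2%) were above. For blood and endothelium 7 of 17 were (41.2%), for muscle 5 of 12 (41.7%) and for endoderm 5 of 9 (55.6%), beside the same 43.9%. The counts of several lists depend on the background level: between the 99th and the 90th percentile of the reference genes, primitive streak and mesoderm genes above it ranged from 2 to 13 of 24, neuroectoderm genes from 5 to 14 of 27 and blood and endothelium genes from 2 to 11 of 23. At the 99th percentile 8 endoderm, 7 trophoblast, 5 primed epiblast, 3 muscle and 9 fibroblast and feeder genes were above. With the mean over a gene's probe sets the counts were 4 for neuroectoderm, 5 for muscle and 9 for fibroblast and feeder genes. In bulk RNA, a few cells with much of a transcript and many cells with little of it cannot be told apart.

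The primed epiblast list, for the stage after the naive ES cell state, was above in 8 of 14 cases (57.1%, all genes 58.3%). The DNA methyltransferase genes Dnmt3b (9.16) and Dnmt3a (7.16) led it, followed by Otx2 (5.98), Cldn6 (5.32), Zic2 (4.96), Pou3f1 (4.80), Sox3 (4.54) and Fgf15 (4.27). Fgf5, the usual marker of that stage, measured 2.94. Primitive streak and mesoderm genes were above in 6 of 24 cases (25%). Tcf15, a bHLH gene of presomitic mesoderm also known in ES cells near the exit from self-renewal, measured 9.01. Eomes measured 5.92, Hand1 4.57, Mesp2 4.26, Pdgfra 4.23 and Twist1 4.01, and Mixl1, of the early streak, 3.44. The streak gene T was not analysed here.

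Endoderm genes were above in 14 of 28 cases (50%, beside 58.3% of all genes). Those above 7 encode proteins of the basement membrane and matrix. Sparc measured 9.37, Lamc1 7.89, Col4a1 7.81, Lama1 7.78, Nid1 7.76, Lamb1 7.11 and Col4a2 6.11. Among the endoderm transcription factors Hhex measured 6.33, Gata6 4.67, Hnf4a 4.10, Sox17 4.02, Foxa1 3.93 and Gata4 3.38. Lrp2 (4.65) and Amn (4.26), of visceral endoderm, were close to background. Trophoblast genes were above in 13 of 20 cases (65%). Tfap2c, Ets2 (6.92) and the keratins Krt19 (6.07), Krt8 (5.49) and Krt18 (5.18) led, with Eomes. Ascl2 (5.06), Gata2 (4.81), Hand1, Rhox6 (4.56), Rhox9 (4.46), Tead4 (4.42) and Fgfr2 (4.21) were lower, while Cdx2 and Elf5, which define trophoblast stem cells, measured 2.70 and 2.19.

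Neuroectoderm genes were above in 8 of 27 cases (29.6%, beside 58.3% of all genes). The tubulin Tubb3 measured 7.36, Zic5 6.60 and the intermediate filament gene Nes 5.73. Ncam1 (5.31), Msi1 (5.09), En2 (4.70), Sox10 (4.32) and Neurod1 (3.93) were the others. The early neural factors Sox1 and Pax6 measured 3.28 and 3.84, neither above background. Blood and endothelium genes were above in 7 of 23 cases (30.4%), none above 6.34 (Cd68, of macrophages). Of those with 1 probe set 7 of 17 were above, 41.2% beside 43.9% of all such genes. Epor measured 5.49, Itga2b 4.76, Tek and Cd3e 4.53 each and Spi1 4.01, with Gata1 at 3.93, Lmo2 at 3.45 and Tal1 at 2.18. Muscle genes were above in 9 of 22 cases (40.9%), led by Myl7 at 6.34. Ttn (5.07), Des (5.05), Acta1 (4.82), Nkx2-5 (4.48), Myh6 (4.18), Ckm (4.09), Actc1 (4.03) and Myh7 (3.96) were the others, and the cardiac factors Tbx5 and Mef2c measured 3.75 and 2.35. Of 6 measured genes of the 2-cell-like state, 1 was above, Usp17la at 5.32; the Zscan4 genes were not analysed here.

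Germ cell genes were above background in 18 of 27 cases (66.7%, beside 58.3% of all genes). Tex19.1, which restrains mobile elements, measured 9.82, the RNA-binding protein gene Dazl 9.62, the bHLH gene Sohlh2 8.48 and the meiotic entry gene Stra8 8.46. Kit (7.79), Tex14 (7.51), Tfap2c, Dppa3 (6.99), Sycp3 (6.57), Tdrd12 (6.43), Prdm1 and Piwil2 (both 5.96) followed. Smc1b (5.81), Mael (5.28), Zp3 (5.0), Rec8 (4.59) and Mov10l1 (4.58) were lower, and Ddx4 (Vasa), of later germ cells, measured 4.70. Of the 18, 15 have 1 probe set.

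The fibroblast and feeder list, which would mark feeder cells in the culture, was above in 14 of 23 cases. Its values ranged from 1.74 to 10.14. The share of 60.9% was near the 58.3% of all genes. Of its 8 genes with 1 probe set 3 were above, 37.5% beside 43.9% of all such genes. Vim (10.14) and Fn1 (9.48), which ES cells can also express, were bright. Acta2 (6.25), Tagln (6.17), Mmp2 (5.51), Col5a1 (5.32), Col5a2 (5.01), S100a4 (4.93), Thy1 (4.91), Col6a2 (4.82), Pdgfrb (4.50), Fbln2 (4.49) and Lox (4.10) came next, and 6 of the 14 genes above had another probe set that was not. Of the fibrillar collagens, Col1a2 measured 4.18 (1 of 3 probe sets above) and Col1a1 and Col3a1 3.34 each. The other members not above, listed in full, were Dcn (3.75), Postn (3.32), Col6a1 (3.18), Lum (2.29), Prrx1 (2.19), Twist2 (2.12) and Fap (1.74). The part of such cells in the levels of this array was not tested.

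**Figure D5:**
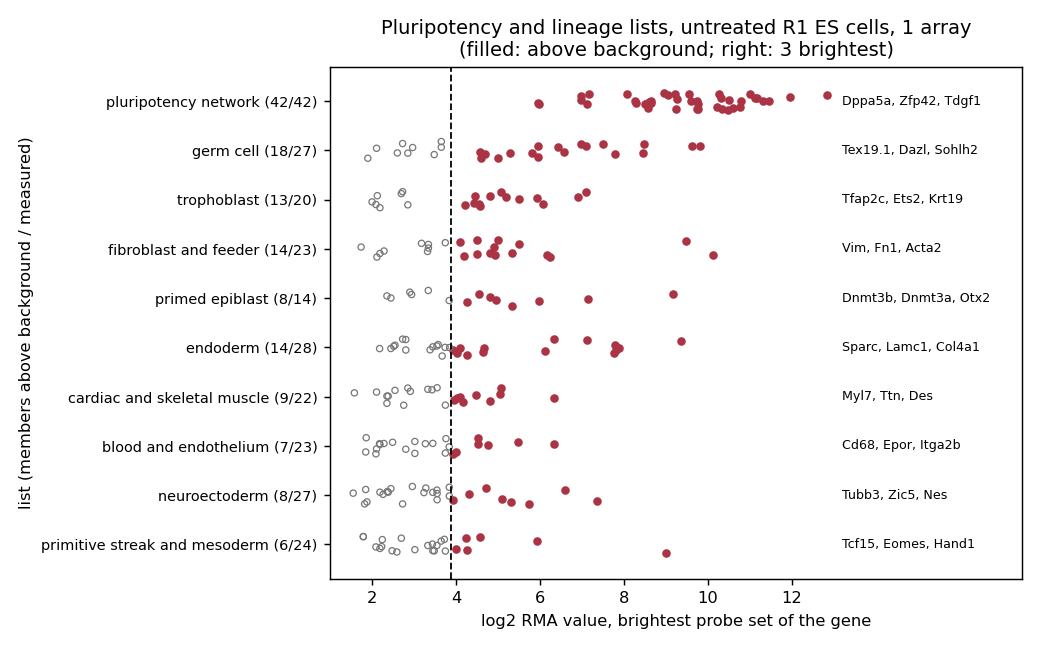
Genes of the pluripotency network and of 9 lineage lists (vertical axis, with the number above background of the number measured) at their log2 RMA values (horizontal axis, brightest probe set), filled where above the dashed background level of 3.88; the 3 brightest are named at the right. All 42 network genes lie right of the line, and in the primitive streak and mesoderm list 6 of 24 do.

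Genes of DNA methylation and Polycomb repression were above background in 37 of 38 cases (97.4%, beside 58.3% of all genes). Their median was 7.54. Trim28, a corepressor that silences mobile elements, measured 11.83, and the histone-binding subunits Rbbp4 and Rbbp7 measured 11.47 and 11.10. All 25 Polycomb genes exceeded background, 15 of them with every probe set. The gene not above was Tet3 at 2.91, a DNA demethylase named after its value was seen. Imprinted genes were above in 23 of 30 cases (76.7%), 13 of the 23 with probe sets on both sides. Gnas (9.84, 1 of 5 probe sets above), the non-coding Meg3 (9.16, 9 of 11) and Ddc (8.99, 1 of 2) led them. With plain-suffix probe sets alone 16 of 28 imprinted genes were above, beside 55.2% of all genes. Of the 10 with 1 probe set 6 were, 60% beside 43.9%. Of 10 sex chromosome transcripts 6 were above (60%, near the share over all genes), each with probe sets on both sides. The Y-linked Eif2s3y measured 8.61, Uty 4.30 and Kdm5d 4.10, and Xist, the RNA that coats the inactive X, measured 6.86 with 1 of its 3 probe sets above background.

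To set levels beside sequence, RefSeq promoter windows were matched to 13268 of 16468 protein-coding genes, 80.6%. Among genes above background, the median CpG observed over expected ratio was 0.69 between background and 6, 0.78 between 6 and 8, 0.82 between 8 and 10 and 0.87 above 10. The lowest of these bands ran from 0.47 to 0.84 and the highest from 0.72 to 0.99 between their quartiles, so they overlap. The ETS site CCGGAAGT, on either strand, was found in the promoter of 5.67% of genes in the lowest of these bands and of 11.1%, 12.2% and 11.6% in the next. The E box CACGTG was found in 9.96%, 12.7%, 13.8% and 15.9% from the lowest band to the highest. Over all 13268 matched genes, the ETS site was found for 6.87%, the E box for 10.5% and the octamer for 1.67%. The octamer was found in 1.52%, 1.73%, 0.983% and 0.967%. For genes not above background 78.1% had a promoter, under the 80% required, so no value is given for them.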

How the data were processed

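The deposited table gives each probe set of each array a log2 value, which the authors obtained with RMA (robust multi-array average), per the submitters' processing notes. RMA corrects each array's background, equalises the arrays' distributions and summarises probes by median polish. RMA's version and settings are not given in the sources used here. The untreated array's values were used with no further normalization. Of 45101 probe sets, 64 were controls, 34945 named 1 gene symbol in GEO's platform annotation (18193 genes), 932 named several and 9160 named none. Entrez identifiers of 34741 probe sets matched RefSeq (GRCm38.p6). List genes without a match were not analysed here.

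Each gene took its brightest probe set, and was counted above background past the 95th percentile of 153 reference genes. Counting was run on simulated data as a check of the code alone. Unplanted genes were drawn from the reference genes' own values, so their share above background was set beforehand. Planted levels above every reference value could not be missed, and a level inside the reference range was only recorded. With 1 array no test was made. Members, families and the 25 lists were chosen with earlier results of these data known. Named genes were the 5 markers, every Id gene, the 20 brightest genes outside the ribosome, the 20 brightest transcription factors, the 3 brightest of each list, family or signalling role, members above background in lists of up to 30 (all those of the lineage lists and some of the others are printed), the first 3 of each lineage list, and others as stated. Windows run from 250 bases before to 50 after a start. Alternatives were 3 other background levels and 3 other choices of probe set. Python 3.11.15, numpy 2.4.6, pandas 2.3.3 and matplotlib 3.10.9 were used.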

Additional observations from a re-analysis of the deposited data

Results flagged for a closer look

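Of the 9160 probe sets that the platform annotation pairs with no gene symbol, and which no gene level used, 1497 exceeded the background level of 3.88, or 16.3%. Their median was 2.45, 217 exceeded 8, 81 exceeded 10 and the brightest measured 13.15. Among probe sets paired with 1 gene, 51.6% exceeded background and the median was 4.02.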

How the results depend on the processing

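The count of genes above background, 10605, was 11595 (63.7%) with the 90th percentile of the reference genes, 8921 (49%) with the 99th, 11452 (62.9%) with the median of all values, 9611 (52.8%) with the mean over a gene's probe sets, 9155 of 16591 (55.2%) with plain-suffix probe sets alone and 10604 with the brightest chosen over the 3 arrays. The total over all lists, the total over all families and the median of the 5 markers stayed within 1.5 times under these 6 alternatives. With the mean, Esrrb measured 7.82. Of 150 list counts 21 moved by more than 1.5 times, and of 186 family counts 31.

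At the 99th percentile the counts were 5 for primed epiblast, 2 for primitive streak and mesoderm, 8 for endoderm, 7 for trophoblast, 5 for neuroectoderm, 2 for blood and endothelium, 3 for muscle, 9 for fibroblast and feeder and 2 for sex chromosome transcripts. Families there gave 6 for Sox, 3 for POU, 2 for NK homeobox, 3 for AP-1, 1 each for Hox, sine oculis homeobox and proneural and myogenic bHLH, and 0 each for Gata, Pax, Irx and Msx and Dlx. At the 90th percentile the counts were 13 for mesoderm, 14 for neuroectoderm, 11 for blood, 2 for the 2-cell-like state, 12 for proneural and myogenic bHLH, 4 for Msx and Dlx and 2 each for LIM homeobox, Irx, TCF and LEF and AP-2. At the median they were 11 for mesoderm, 13 for neuroectoderm, 2 for the 2-cell-like state, 11 for proneural and myogenic bHLH, 4 for Msx and Dlx, 1 for LIM homeobox and 2 each for Irx, TCF and LEF and AP-2. With the mean over probe sets they were 4 for neuroectoderm, 5 for muscle, 9 for fibroblast and feeder, 1 for sex chromosome transcripts, 4 each for Hox and proneural and myogenic bHLH, and 0 for Pax and for Msx and Dlx. Plain-suffix probe sets gave 5 of 13 for retinoic acid, 7 of 16 for Sox, 2 of 3 for Id, 2 of 5 for AP-2 and 1 of 4 for Irf. The cause of the moved counts was not tested where the probe set rule changed, since the level then changed too.

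With 1 array, there was no replicate to leave out. No paired analysis was possible because each condition has 1 array. The background level rests on 153 genes, and 975 genes lay within 0.25 of it. Probe affinity and cross-hybridisation were not measured. Of the 153 reference genes 138 have 1 probe set, and 9010 of the 18193 genes have several.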
